A study of Mus musculus with 9 samples.

Results

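Serpins and cathepsins are 2 families that govern proteolysis in and around cells, and their RNA was compared between 3 sorted populations of mouse tracheal epithelium. The members are all genes whose annotated symbol starts with Serpin, a clade letter from a to i and a digit, or with Cts and a letter, each represented by its probe set of highest mean over the 9 arrays. This rule found 59 of the 18193 genes measured, of which 40 were serpins and 19 were cathepsins. It used names and mean levels over all arrays, and no difference between the populations.

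The cells came from the tracheas of mice hemizygous for a KRT5-GFP transgene, in which the promoter of keratin 5, a gene of basal cells, drives green fluorescent protein (GFP). All 3 populations came from such animals, so the columnar cells carried the transgene too, and no wild-type cells were analysed here. Cells were sorted for GFP and for binding of the isolectin GSI-A3B into GFP-positive lectin-binding cells (the GFP+ gate), GFP-negative lectin-binding cells (the lectin-only gate), and cells negative for both, labelled as columnar epithelium (the columnar gate). Each gate gave 3 arrays, described as biological replicates without the number of animals behind each, and the values are deposited log2 signals of Affymetrix probe sets. No source used here gives the ages of the mice.

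Most serpins trap a serine protease irreversibly by presenting a reactive loop as bait, and some act on cysteine proteases or not on proteases at all. Clade B serpins lie mainly inside cells, including stratified epithelia and leukocytes, while the other clades are largely secreted. Cathepsins are proteases that work mostly in lysosomes: most are cysteine proteases, Ctsd and Ctse are aspartic proteases, and Ctsa and Ctsg are serine enzymes. Several carry out tasks of immune cells, such as antigen presentation and the activation of granule proteases.

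The basal markers Krt5 and Trp63 were high in both lectin-binding gates. Krt5 lay at 13.42 to 13.44 on the GFP+ arrays and 12.72 to 13.02 on the lectin-only arrays, against 6.71 to 8.88 on the columnar arrays, and Trp63 at 12.93 to 13.19, 11.79 to 12.06 and 7.29 to 7.92. Foxj1, the regulator of motile cilia, had the opposite order, at 3.72 to 4.52 in GFP+, 5.11 to 5.75 in lectin-only and 7.18 to 7.36 in columnar cells. The pan-leukocyte gene Ptprc lay at 4.73 to 6.38 in GFP+, 8.29 to 9.72 in lectin-only and 2.53 to 4.36 in columnar cells, so all lectin-only arrays were above all others for it. By the calls defined below, 10 of 10 basal markers were higher in each lectin-binding gate than in columnar cells. Between the lectin-binding gates, 6 of these 10 were higher in GFP+ cells and 0 lower. Of 10 columnar markers, 6 were lower in GFP+ and 4 in lectin-only than in columnar cells. Between the lectin-binding gates, 2 of them were lower in GFP+ cells. Of all genes, 11.2% were called in GFP+ against columnar, 8.85% in lectin-only against columnar and 3.74% in GFP+ against lectin-only cells. Lectin-only replicate 3 stood apart, with a median signal of 5.44 where the other 8 arrays had 4.91 to 5.16, and results that rest on that array are given with and without it. In RNA from many cells, fewer cells of a type and less RNA per cell cannot be told apart.

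Of the 59 members, 28 lay above the background level of 3.56 on the log2 scale on all 9 arrays, 14 on some arrays and 17 on none. This level was taken from 80 receptor probe sets of smell and pheromone sensing, genes not known from this tissue, as the 95th percentile of their signals. The 17 members never above it were Serpina1c, Serpina1f, Serpina3a, Serpina3i, Serpina4-ps1, Serpina5, Serpina6, Serpina7, Serpinb6c, Serpinb9b, Serpinb9c, Serpinb9g and Serpini2 among serpins, and Ctsg, Ctsj, Ctsm and Ctsq among cathepsins. Ctsg is a granule protease of neutrophils, and Ctsj, Ctsm and Ctsq are placental cathepsins of rodents. All tests below kept these dim members, since a filter on level would have favoured genes that differ.

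A gene was called where limma's adjusted p over all 18193 genes was under 0.05 and the log2 difference was at least 1 in size. In GFP+ against columnar cells, 6 members were higher and 2 lower, which is 13.6% of the 59. Of all genes 11.2% were called there, 5.88% higher and 5.33% lower. In lectin-only against columnar cells, 8 were higher and 1 lower, 15.3% of the members, against 8.85% of all genes, 6.47% higher and 2.38% lower. In GFP+ against lectin-only cells, 0 were higher and 3 lower, 5.08% of the members, against 3.74% of all genes, 0.896% higher and 2.84% lower. The members' median differences were -0.07, 0.03 and -0.15, beside -0.04, 0.07 and -0.10 over all genes. These medians carry no direction of their own: with each array centred on its median, those of the members were -0.15, -0.22 and 0.01 and those of all genes -0.12, -0.17 and 0.06. The shares called are a description of the families and no test of them. The calls were 12 distinct members, 10 serpins and 2 cathepsins, and the other 47 were called in no comparison. The comparisons against columnar cells share the 3 columnar arrays, so the calls they have in common are not separate evidence.

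**Figure D1:**
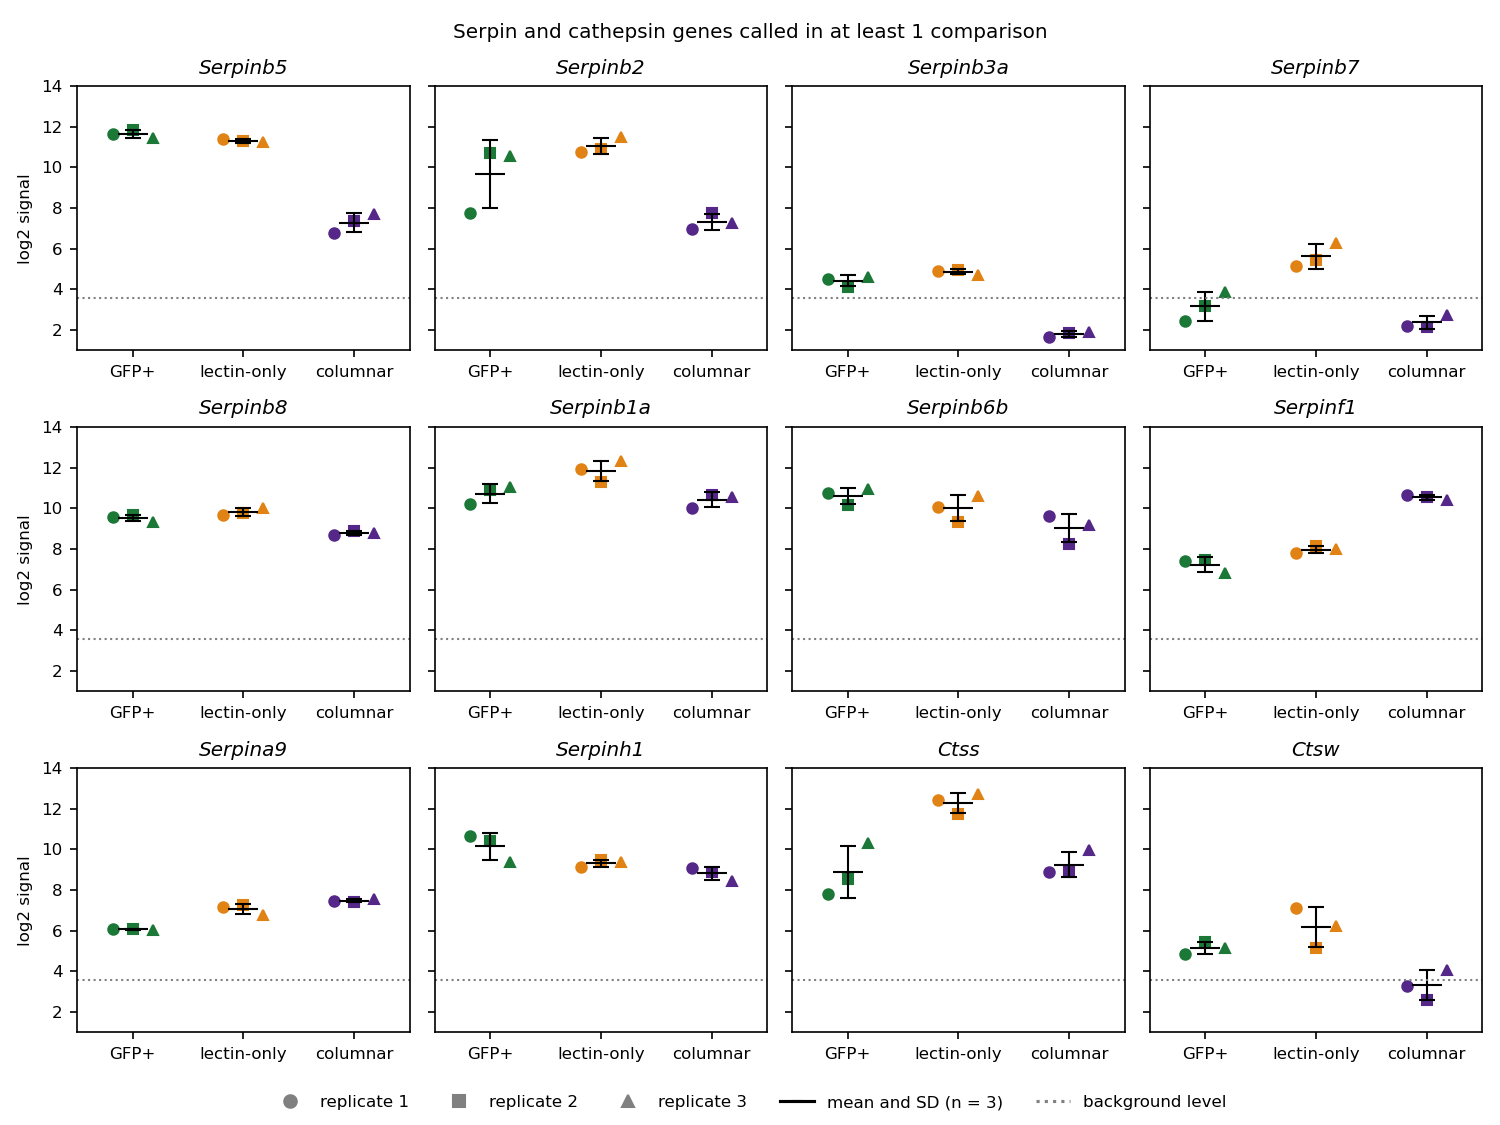
Log2 signal (vertical axis) of the 12 members called in at least 1 comparison, 1 panel per gene, with gates from left to right as GFP+, lectin-only and columnar; points are arrays, with the shape giving the replicate number, black bars are the mean and SD of 3 arrays, and the dotted line is the background level of 3.56. The lowest lectin-binding array of Serpinb5 is at 11.23 and the highest columnar array at 7.72, while Serpinf1 lies lower in both lectin-binding gates than in columnar cells.

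The serpins that were higher in lectin-binding cells came largely from one stretch of chromosome 1. Members are termed neighbours here where the gap to the next measured member was at most 1 Mb in RefSeq's GRCm38.p6 annotation. Genes that are not members were not counted, so neighbours need not be adjacent genes or a whole gene cluster. On chromosome 1, 7 clade B members were such neighbours: Serpinb5, Serpinb12, Serpinb3a, Serpinb11, Serpinb7, Serpinb2 and Serpinb8. All 7 lay above background on at least 1 array. Of them 5 were called higher in lectin-only against columnar cells and 0 lower, where 6.47% of all genes were called higher. The median fitted difference of 3.05 was that of Serpinb3a, whose columnar arrays were all under background, and was 1.30 with values under background raised to that level. In GFP+ against columnar cells 3 were higher and 0 lower, where 5.88% of all genes were called higher, and the median was 0.79 as fitted and 0.72 with that floor. In GFP+ against lectin-only cells 1 was lower, where 2.84% of all genes were called lower, and the median was -0.60 either way.

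Start regions are shown for Serpinb5, Serpinb2, Serpinb7 and Serpinb8, which are the called neighbours whose windows hold an AP-1 match. That of Ctss is shown for contrast. Serpinb3a was called too, and its window, with a TATA box and no AP-1 match, is not printed. The neighbours did not all differ in the same direction. In GFP+ against columnar cells Serpinb11 was at -1.14 and Serpinb12 at -0.36, neither of them called. Each sequence is the 250 bases upstream of the annotated start of transcription, from RefSeq on GRCm38.p6, 5′ to 3′ on the gene's strand. RefSeq's table has 2 overlapping windows for Serpinb2, of which the one with the lower coordinates is shown, and its gene record begins farther upstream than either. All 5 lie on the plus strand, Serpinb5 at chr1:106860925-106861174, Serpinb2 at chr1:107511173-107511422, Serpinb7 at chr1:107422439-107422688, Serpinb8 at chr1:107589756-107590005 and Ctss at chr3:95526536-95526785. Capitals mark matches on either strand to the AP-1 motif TGANTCA, the TATA box TATAAA, the PU.1 core GAGGAA and the interferon response motif, which is GAAA, any 2 bases and GAAA, and no capitalised matches overlap.
Serpinb5: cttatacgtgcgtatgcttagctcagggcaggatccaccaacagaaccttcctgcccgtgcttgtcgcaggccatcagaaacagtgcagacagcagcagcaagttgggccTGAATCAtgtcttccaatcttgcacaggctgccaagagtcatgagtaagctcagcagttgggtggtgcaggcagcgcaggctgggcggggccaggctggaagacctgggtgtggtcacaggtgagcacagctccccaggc
Serpinb2: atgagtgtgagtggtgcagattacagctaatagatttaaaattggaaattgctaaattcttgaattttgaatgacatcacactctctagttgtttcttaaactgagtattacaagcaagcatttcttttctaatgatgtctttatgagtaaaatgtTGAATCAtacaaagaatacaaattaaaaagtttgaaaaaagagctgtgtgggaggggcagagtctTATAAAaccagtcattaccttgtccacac
Serpinb7: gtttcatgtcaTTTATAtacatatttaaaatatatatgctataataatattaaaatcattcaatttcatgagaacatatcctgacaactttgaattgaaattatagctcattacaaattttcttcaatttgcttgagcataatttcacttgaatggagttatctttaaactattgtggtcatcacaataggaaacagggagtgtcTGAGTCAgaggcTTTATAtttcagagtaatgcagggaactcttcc
Serpinb8: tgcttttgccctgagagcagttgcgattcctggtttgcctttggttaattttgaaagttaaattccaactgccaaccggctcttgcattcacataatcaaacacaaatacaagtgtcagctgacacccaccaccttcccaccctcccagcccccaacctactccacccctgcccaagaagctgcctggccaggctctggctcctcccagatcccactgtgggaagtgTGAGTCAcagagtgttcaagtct
Ctss: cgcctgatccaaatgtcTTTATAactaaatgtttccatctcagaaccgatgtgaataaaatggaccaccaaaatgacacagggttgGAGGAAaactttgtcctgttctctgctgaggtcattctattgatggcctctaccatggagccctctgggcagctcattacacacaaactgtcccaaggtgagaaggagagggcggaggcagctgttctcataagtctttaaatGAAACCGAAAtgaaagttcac

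For AP-1, a motif of Fos and Jun proteins, the pattern TGANTCA left the middle base open. Counted by gene, with a match in any of its windows, the pattern occurred in 6 of the 7 chromosome 1 neighbours, all but the called Serpinb3a. The 6 include the uncalled Serpinb11 and Serpinb12. It occurred in 0 of the 10 clade B serpins on chromosome 13 that have a window, and in 8 of the 49 members that have one. Counted by window, which is not the same measure, it occurred in 6.75% of 32851 windows of the same length. The match was TGAATCA in Serpinb5 and Serpinb2 and TGAGTCA in Serpinb7 and Serpinb8. In Serpinb5 it began 140 bases before the start, in Serpinb2 94, in Serpinb7 45 and in Serpinb8 23. The window of Serpinb2 also held a TATA box 29 bases before the start, and that of Serpinb7 held TATA boxes 239 and 33 bases before it; TATAAA occurred in 12.4% of all windows. The motifs were picked after expression values had been seen, and a match describes letters in a window, not a bound site. The windows of Serpinb3a, Serpinb6b, Serpinf1 and Serpinh1 are not printed, and no window was available for Serpinb1a, Serpina9 and Ctsw.

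Serpinb5 encodes maspin, a serpin of basal and myoepithelial cells. Its signals were 11.65, 11.84 and 11.45 in GFP+ cells, 11.41, 11.28 and 11.23 in lectin-only cells, and 6.79, 7.35 and 7.72 in columnar cells. All 6 lectin-binding arrays were far above the columnar ones. The log2 difference was 4.36 ± 0.24 (SE, n = 3 arrays a gate) for GFP+ against columnar, a 20.5-fold difference with limma's adjusted p of 7.91e-06. It was 4.02 ± 0.24, 16.2-fold, for lectin-only against columnar (adjusted p = 2.56e-05). Between GFP+ and lectin-only cells the difference of 0.34 ± 0.24 was not called (adjusted p = 0.595), and both calls held under all 19 alternative settings.

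Serpinb2 encodes plasminogen activator inhibitor 2, which blocks urokinase. Its signals were 7.75, 10.70 and 10.54 in GFP+ cells, 10.74, 10.91 and 11.48 in lectin-only cells, and 6.95, 7.76 and 7.24 in columnar cells. The lectin-only arrays were all above the columnar ones, while GFP+ replicate 1 lay among the columnar ones. Lectin-only cells were higher than columnar cells by 3.73 ± 0.67, or 13.2-fold (adjusted p = 0.00634). GFP+ cells were called higher by 2.35 ± 0.67, or 5.09-fold, with an adjusted p of 0.0461 in limma. That call was lost in 10 of 19 alternatives, among them each fit that left out 1 array other than GFP+ replicate 1, while without GFP+ replicate 1 the difference was 3.30 and the call held. The difference of -1.38 ± 0.67 between GFP+ and lectin-only cells was not called (adjusted p = 0.391).

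Serpinb3a is a mouse homologue of the human squamous cell carcinoma antigens, which inhibit cysteine and serine proteases. Its signals were 4.50, 4.11 and 4.63 in GFP+ cells, 4.91, 4.95 and 4.72 in lectin-only cells, and 1.66, 1.88 and 1.89 in columnar cells. All columnar arrays were under the background level, so fold values are bounds. GFP+ cells were at least 1.81-fold higher than columnar cells (limma adjusted p = 2.95e-05) and lectin-only cells at least 2.47-fold (adjusted p = 2.79e-05). Its probe set carries the suffix x_at, which marks probes that can also match related genes, and the Serpinb3 family holds close relatives.

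Serpinb7, whose human counterpart is named megsin, differed between the lectin-binding gates. Its signals were 2.43, 3.20 and 3.86 in GFP+ cells, 5.14, 5.42 and 6.29 in lectin-only cells, and 2.21, 2.17 and 2.76 in columnar cells. Every lectin-only array lay above every other array, and GFP+ and columnar arrays overlapped. Lectin-only cells were at least 4.17-fold higher than columnar cells, whose arrays were all under background (limma adjusted p = 0.000836). Of the GFP+ arrays 2 were under background. GFP+ cells were lower than lectin-only cells by a fitted log2 difference of -2.45 ± 0.40 (adjusted p = 0.00961), or by -1.96, 3.89-fold, with values under background raised to that level, and the difference of 0.79 ± 0.40 between GFP+ and columnar cells was not called (adjusted p = 0.266).

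Serpinb8, whose human counterpart inhibits the proprotein convertase furin, differed by less. Its signals were 9.56, 9.65 and 9.35 in GFP+ cells, 9.67, 9.78 and 10.02 in lectin-only cells, and 8.70, 8.88 and 8.81 in columnar cells. Both lectin-binding gates were above the columnar gate on every array. The log2 difference was 1.03 ± 0.17, 2.04-fold, for lectin-only against columnar (limma adjusted p = 0.00401), close to the fold minimum. It fell below that minimum, to between 0.79 and 0.98, in 7 of 19 alternatives, lectin-only replicate 3 and columnar replicate 1 left out among them. For GFP+ against columnar it was 0.72 ± 0.17 with an adjusted p of 0.0187, under the fold minimum.

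Serpinb11 and Serpinb12, the other neighbours, were called in no comparison. Serpinb11 lay at 7.86, 11.33 and 11.25 in GFP+ cells, 12.34, 12.43 and 12.58 in lectin-only cells, and 10.77, 11.52 and 11.57 in columnar cells. Its lectin-only arrays were all above its columnar arrays, and GFP+ replicate 1 was far below the rest. The lectin-only against columnar difference of 1.16 ± 0.78 was not called (limma adjusted p = 0.462), but it was called without GFP+ replicate 1 (adjusted p = 0.0156), since that array enters the shared spread. Serpinb12 lay at 4.22, 5.35 and 5.45 in GFP+ cells, 5.92, 5.83 and 5.06 in lectin-only cells, and 5.34, 5.39 and 5.35 in columnar cells, with overlapping gates. Some other genes, but not all, were also low on GFP+ replicate 1, where Serpinb2, Serpinb11 and Serpinb12 had low values. Spink5, a kallikrein inhibitor of stratified epithelia, lay at 7.68 there and at 10.83 and 10.68 on the other GFP+ arrays. Krt5 was not low, at 13.44 there and 13.44 and 13.42 on the others, nor was Serpinb5, at 11.65 beside 11.84 and 11.45. The part of that array's make-up in these results was not tested.

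**Figure D2:**
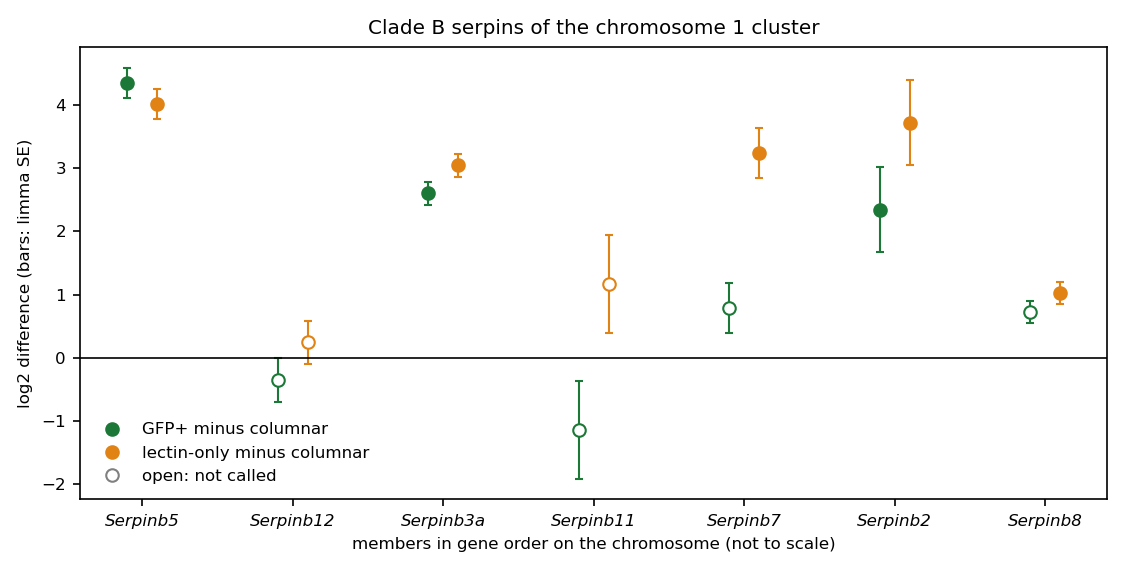
Log2 differences (vertical axis) of the 7 neighbouring clade B serpins in their order along chromosome 1, not to scale, with GFP+ minus columnar in green and lectin-only minus columnar in orange; bars are limma standard errors and open points were not called. The fitted lectin-only differences of Serpinb5 and Serpinb2 are 4.02 and 3.73, those of Serpinb3a and Serpinb7 are set against columnar arrays all under background and so stand for at least 2.47-fold and at least 4.17-fold, and the GFP+ differences of Serpinb12 and Serpinb11 lie below 0.

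The clade B serpins on chromosome 13, 11 neighbours in the same annotation, gave 1 call in each comparison against columnar cells and 0 between the lectin-binding gates. These are 9.09%, 9.09% and 0% of them, beside 11.2%, 8.85% and 3.74% of all genes. Of the 11, 7 lay above background on at least 1 array. Serpinb1a, an inhibitor of neutrophil serine proteases, had signals of 10.19, 10.90 and 11.07 in GFP+ cells, 11.92, 11.31 and 12.31 in lectin-only cells, and 10.02, 10.68 and 10.58 in columnar cells. Every lectin-only array was above every other array, and GFP+ and columnar arrays overlapped. Lectin-only cells were higher than columnar cells by 1.42 ± 0.32, 2.67-fold (limma adjusted p = 0.0203). The adjusted p was 0.0695 without lectin-only replicate 1, 0.0674 without lectin-only replicate 3 and 0.0765 without columnar replicate 1. The GFP+ against lectin-only difference of -1.13 ± 0.32 was not called (adjusted p = 0.0974). Its probe set has the suffix s_at, which marks probes shared by several transcripts.

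Serpinb6b, a serpin of the same intracellular group, was called higher in GFP+ cells. Its signals were 10.77, 10.19 and 10.93 in GFP+ cells, 10.09, 9.35 and 10.62 in lectin-only cells, and 9.64, 8.25 and 9.19 in columnar cells. GFP+ and columnar arrays did not overlap, and the lectin-only arrays overlapped both. The GFP+ against columnar difference was 1.60 ± 0.41, 3.03-fold (limma adjusted p = 0.029), and 5 of the 9 fits without 1 array lost it, with adjusted p-values between 0.0506 and 0.105. These were the fits without GFP+ replicate 1, GFP+ replicate 3, lectin-only replicate 1, columnar replicate 2 and columnar replicate 3. Serpinb6a, an intracellular serpin, was at 11.03 to 11.57 in GFP+, 11.13 to 11.42 in lectin-only and 11.33 to 11.78 in columnar cells, with overlapping arrays.

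Among the secreted and other serpins, Serpinf1 showed the clearest difference in the columnar direction. Serpinf1 encodes pigment epithelium-derived factor, a secreted protein that restrains blood vessel growth and does not inhibit proteases. Its signals were 7.40, 7.48 and 6.80 in GFP+ cells, 7.81, 8.13 and 7.99 in lectin-only cells, and 10.66, 10.57 and 10.40 in columnar cells. The 3 gates did not overlap on any array. GFP+ cells were lower than columnar cells by a log2 difference of -3.32 ± 0.21, 9.97-fold (limma adjusted p = 1.54e-05). Lectin-only cells were lower by -2.57 ± 0.21, 5.93-fold (adjusted p = 0.000113), and the GFP+ against lectin-only difference of -0.75 ± 0.21 was not called (adjusted p = 0.093). Of 10 fibroblast markers, 2 were higher and 4 lower in GFP+ against columnar cells, and 3 were higher and 0 lower in lectin-only against columnar cells. These are 60% and 30% of the list, beside 11.2% and 8.85% of all genes. Their mean level over the list was 4.64 to 5.03 in GFP+, 5.89 to 6.32 in lectin-only and 5.19 to 5.59 in columnar cells. That mean joins genes of opposite direction. Dcn lay at 10.95 to 11.59 in GFP+ and 6.76 to 6.99 in columnar cells. Col3a1 lay at 3.31 to 4.95 and 7.26 to 8.42 in the same order. The part of the fibroblast markers in the Serpinf1 difference was not tested.

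Serpina9, known in human as centerin of germinal-centre B cells, was lower in GFP+ cells than in both other gates. Its signals were 6.11, 6.07 and 6.03 in GFP+ cells, 7.17, 7.27 and 6.78 in lectin-only cells, and 7.44, 7.42 and 7.55 in columnar cells. The GFP+ arrays lay close to one another and below all others. The log2 difference was -1.40 ± 0.17, 2.65-fold lower, against columnar cells (limma adjusted p = 0.000538) and -1.004 ± 0.17, 2.01-fold lower, against lectin-only cells (adjusted p = 0.0126). The call against lectin-only cells sat on the fold minimum and was lost in 5 of 19 alternatives, with differences of -0.85 to -0.98. Lectin-only against columnar cells, at -0.40, was not called (adjusted p = 0.214).

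Serpinh1, the collagen chaperone HSP47 of the endoplasmic reticulum, was higher in GFP+ cells. Its signals were 10.64, 10.43 and 9.40 in GFP+ cells, 9.11, 9.46 and 9.38 in lectin-only cells, and 9.09, 8.91 and 8.45 in columnar cells. All GFP+ arrays were above the columnar arrays, and GFP+ replicate 3 lay among the lectin-only ones. The GFP+ against columnar difference was 1.34 ± 0.32, 2.54-fold (limma adjusted p = 0.02), with adjusted p-values of 0.0699 without GFP+ replicate 1, 0.0771 without GFP+ replicate 2 and 0.0763 without columnar replicate 3. Against lectin-only cells it was 0.84 (adjusted p = 0.226), and without GFP+ replicate 3 it was 1.22 and called (adjusted p = 0.0381). The probe set has the suffix x_at.

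Serping1, the C1 inhibitor that controls complement and contact activation, was called in no comparison. It lay at 11.07, 10.53 and 10.63 in GFP+ cells, 10.06, 10.33 and 10.76 in lectin-only cells, and 11.17, 11.30 and 11.23 in columnar cells. Both lectin-binding gates were below the columnar gate on every array. Lectin-only against columnar cells differed by -0.85 ± 0.22 (limma adjusted p = 0.0394), under the fold minimum, and without lectin-only replicate 3 by -1.04 (adjusted p = 0.0152), which was called. Of the 13 neighbouring clade A serpins on chromosome 12, many of which are liver secretory proteins, 6 lay above background on any array and Serpina9 was the 1 called. The share called was 7.69% in GFP+ against columnar, 0% in lectin-only against columnar and 7.69% in GFP+ against lectin-only cells. Of all genes 11.2%, 8.85% and 3.74% were called. Serpina3n, an inhibitor induced in inflammation, was not called in GFP+ against columnar cells, at 1.09 (limma adjusted p = 0.0623), but was in 5 of 19 alternatives, and Serpina1b, an alpha-1 antitrypsin, at -1.12 (adjusted p = 0.121), was in 3, the replicate number as a block being among both. Serpina3n was above background on 1 GFP+ array and on 0 columnar arrays, and Serpina1b on 0 GFP+ arrays and on all 3 columnar arrays. With values under background raised to that level, the GFP+ against columnar difference was 0.24 for Serpina3n and -0.52 for Serpina1b. The uncalled serpins ranged from -1.14 to 1.09 in GFP+ against columnar, from -0.85 to 1.16 in lectin-only against columnar and from -2.30 to 0.40 in GFP+ against lectin-only cells.

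Of the 19 cathepsins, 1 was higher and 0 lower in GFP+ against columnar cells, 2 were higher and 0 lower in lectin-only against columnar cells, and 0 were higher and 1 lower in GFP+ against lectin-only cells. These are 5.26%, 10.5% and 5.26% of the cathepsins, beside 11.2%, 8.85% and 3.74% of all genes. Their median fitted differences were -0.18, -0.03 and -0.19. Both that were called, Ctss and Ctsw, are known from immune cells.

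Ctss cleaves the invariant chain of MHC class II in antigen-presenting cells. Its signals were 7.78, 8.55 and 10.30 in GFP+ cells, 12.41, 11.72 and 12.70 in lectin-only cells, and 8.90, 8.87 and 9.96 in columnar cells. The lectin-only arrays were all above the rest, and GFP+ and columnar arrays overlapped. Lectin-only cells were higher than columnar cells by 3.03 ± 0.59, 8.19-fold (limma adjusted p = 0.00899). GFP+ cells were lower than lectin-only cells by a log2 difference of -3.40 ± 0.59, 10.6-fold (adjusted p = 0.0126), with adjusted p-values of 0.0515 without lectin-only replicate 1 and 0.0541 without lectin-only replicate 3. GFP+ against columnar cells, at -0.37 ± 0.59, was not called (adjusted p = 0.786). Its window above holds a PU.1 core 164 bases and an interferon response motif 21 bases before the start, which occur in 23.3% and 2.98% of all windows.

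Ctsw is a cathepsin of cytotoxic T and natural killer cells. Its signals were 4.87, 5.44 and 5.16 in GFP+ cells, 7.10, 5.16 and 6.25 in lectin-only cells, and 3.27, 2.59 and 4.07 in columnar cells. All lectin-binding arrays were above all columnar arrays, and the lectin-binding gates overlapped. Of the columnar arrays 2 were under background. Lectin-only cells were higher than columnar cells by a fitted 2.86 ± 0.49 (limma adjusted p = 0.00499), or 5.43-fold with values under background raised to that level. GFP+ cells were higher by a fitted 1.85 ± 0.49 (adjusted p = 0.0337), or 2.69-fold with that floor. The GFP+ call was lost in 6 of 19 alternatives, each leaving out 1 array, with adjusted p-values from 0.0503 to 0.113: every GFP+ replicate, lectin-only replicate 3, and columnar replicates 1 and 2. The GFP+ against lectin-only difference of -1.01 ± 0.49 was not called (adjusted p = 0.389).

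Leukocyte markers differed between the same gates. Of 27 measured, 23 were higher and 0 lower in lectin-only against columnar cells, with a median difference of 4.56. In GFP+ against lectin-only cells 0 were higher and 21 lower, with a median of -3.50, and in GFP+ against columnar cells 8 were higher and 1 lower, with a median of 0.88. These are 85.2%, 77.8% and 33.3% of the list in the order given, beside 8.85%, 3.74% and 11.2% of all genes. The mean level of the list was 6.07, 6.48 and 7.37 on the GFP+ arrays, 9.67, 9.38 and 9.92 on the lectin-only arrays and 5.57, 5.42 and 6.17 on the columnar arrays. GFP+ replicate 3 had the highest list mean of the GFP+ gate and the highest Ctss there, while Ctsw was highest on GFP+ replicate 2 and lectin-only replicate 1, where the list mean was not at its highest. The chemokine gene Ccl3 differed by 7.47 ± 0.81 in lectin-only against columnar cells, and the T-cell gene Cd3g was under background on all columnar arrays. Of 16 mast cell and granulocyte genes, 3 were higher and 1 lower against columnar cells in each lectin-binding gate. Of 10 endothelial genes, 0 were higher and 1 lower in GFP+ against columnar cells and 3 higher and 0 lower in lectin-only against columnar cells, and of 7 Schwann cell and cartilage genes 0 were called. Against columnar cells, 25% of the mast cell and granulocyte list was called in each lectin-binding gate. The endothelial shares were 10% in GFP+ and 30% in lectin-only cells, beside 11.2% and 8.85% of all genes. The part of leukocytes in the Ctss, Ctsw, Serpinb1a and Serpinb7 results was not tested.

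**Figure D3:**
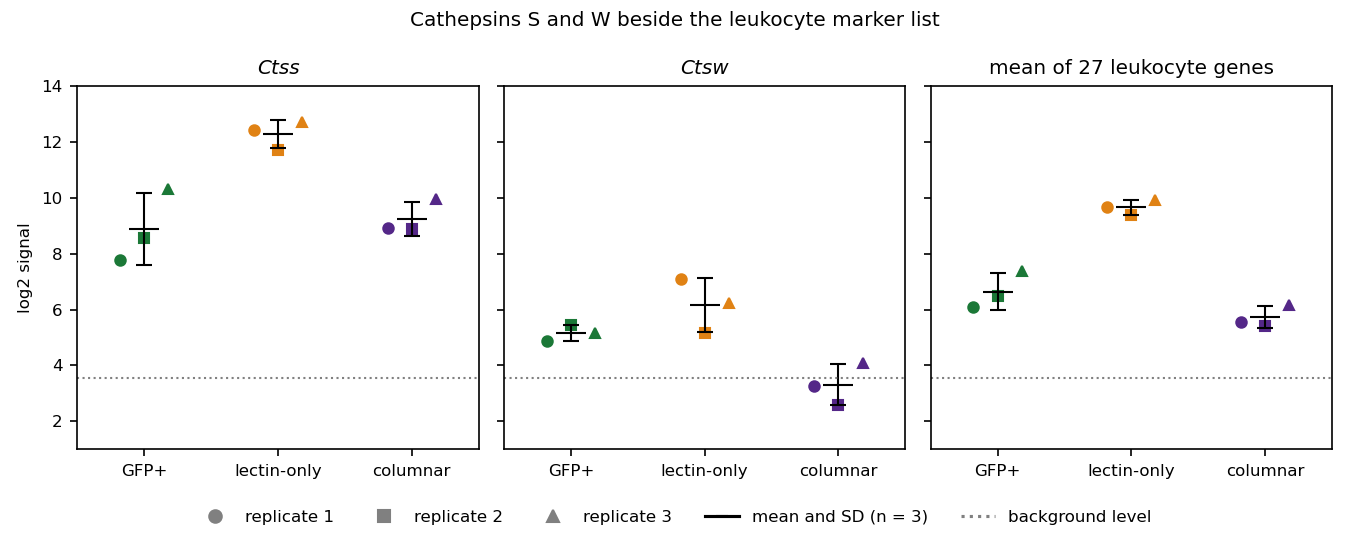
Log2 signal (vertical axis) of Ctss and Ctsw and the mean log2 signal of 27 leukocyte markers, with gates from left to right as GFP+, lectin-only and columnar; points are arrays, black bars are the mean and SD of 3 arrays, and the dotted line is the background level of 3.56. The lectin-only arrays have list means of 9.38 to 9.92 and Ctss signals of 11.72 to 12.70, above the other 6 arrays in both panels.

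Among the cathepsins called in no comparison, Ctsb, a lysosomal cysteine protease, lay at 12.56 to 12.97 in GFP+, 12.69 to 12.85 in lectin-only and 12.76 to 12.80 in columnar cells, and its GFP+ against columnar difference was -0.00 ± 0.16. Ctsd, the main aspartic protease of lysosomes, lay at 11.03 to 11.76, 11.34 to 11.91 and 11.32 to 11.44 in the same order of gates, and Ctsz, a cysteine protease, at 10.23 to 10.74, 10.68 to 11.00 and 10.74 to 10.83. Arrays of Ctsb and Ctsd overlapped between all gates, and the GFP+ arrays of Ctsz were just below its columnar arrays, by a difference of -0.22 that was not called (limma adjusted p = 0.569). Ctsh, an aminopeptidase, lay at 11.15 to 11.59 in GFP+, 11.78 to 11.88 in lectin-only and 12.02 to 12.32 in columnar cells. On this brightest probe set the gates did not overlap. Its GFP+ against columnar difference was -0.78 ± 0.17 (limma adjusted p = 0.015), under the fold minimum. A second bright probe set of Ctsh gave -0.46. It lay at 11.13 to 11.43, 11.14 to 11.95 and 11.75 to 11.80, where lectin-only arrays overlapped both other gates. Ctsa, the protective protein of lysosomal sialidase, lay at 9.43 to 10.04, 10.004 to 10.71 and 10.70 to 10.75. It differed by -0.96 ± 0.23 in GFP+ against columnar cells (adjusted p = 0.0199), also under the fold minimum. Ctsa was called lower with arrays centred on their medians (-1.04, adjusted p = 0.0338) and without GFP+ replicate 2 (-1.10, adjusted p = 0.026). A second, dimmer probe set of Ctsa gave 0.27 in GFP+ against columnar cells, with overlapping arrays.

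Ctsl and Ctsc gave different pictures by probe set. Ctsl, a lysosomal cysteine protease, lay at 12.56, 12.33 and 11.54 in GFP+, 11.28, 12.01 and 11.26 in lectin-only, and 11.99, 11.26 and 11.49 in columnar cells by its brightest probe set, and its GFP+ against columnar difference of 0.56 ± 0.32 was not called. A second probe set of Ctsl lay at 8.70, 7.90 and 8.18, 6.91, 7.25 and 6.14, and 7.12, 6.19 and 6.31 in the same order, a difference of 1.72 (limma adjusted p = 0.0105). For Ctsc, which activates granule serine proteases, the brightest probe set lay at 10.10, 10.55 and 10.19 in GFP+, 10.45, 10.57 and 10.44 in lectin-only, and 10.14, 10.12 and 10.02 in columnar cells, with all lectin-only arrays above all columnar arrays. Another lay at 7.31, 7.36 and 7.83 in GFP+, 7.72, 7.58 and 7.90 in lectin-only, and 5.87, 5.63 and 5.05 in columnar cells. The remaining one lay at 7.70 to 7.92, 7.70 to 8.18 and 5.89 to 6.56. With the mean of all its probe sets, Ctsc was higher by 1.27 ± 0.17 in GFP+ against columnar cells (adjusted p = 0.000574) and by 1.47 in lectin-only against columnar cells (adjusted p = 0.000372). Its brightest probe set gave 0.19 (adjusted p = 0.586) and 0.39 (adjusted p = 0.215), so Ctsc and Ctsl are uncertain. Other members also varied by probe set. A second one of Ctse differed by 1.74 in lectin-only against columnar cells, where the brightest gave -0.20, but its columnar arrays lay at 4.60, 3.30 and 3.02. A second one of Serpinb9 was called in GFP+ against columnar cells, at 1.04 (limma adjusted p = 0.0232). The brightest of Serpinb9 gave 0.75 (adjusted p = 0.167).

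**Figure D4:**
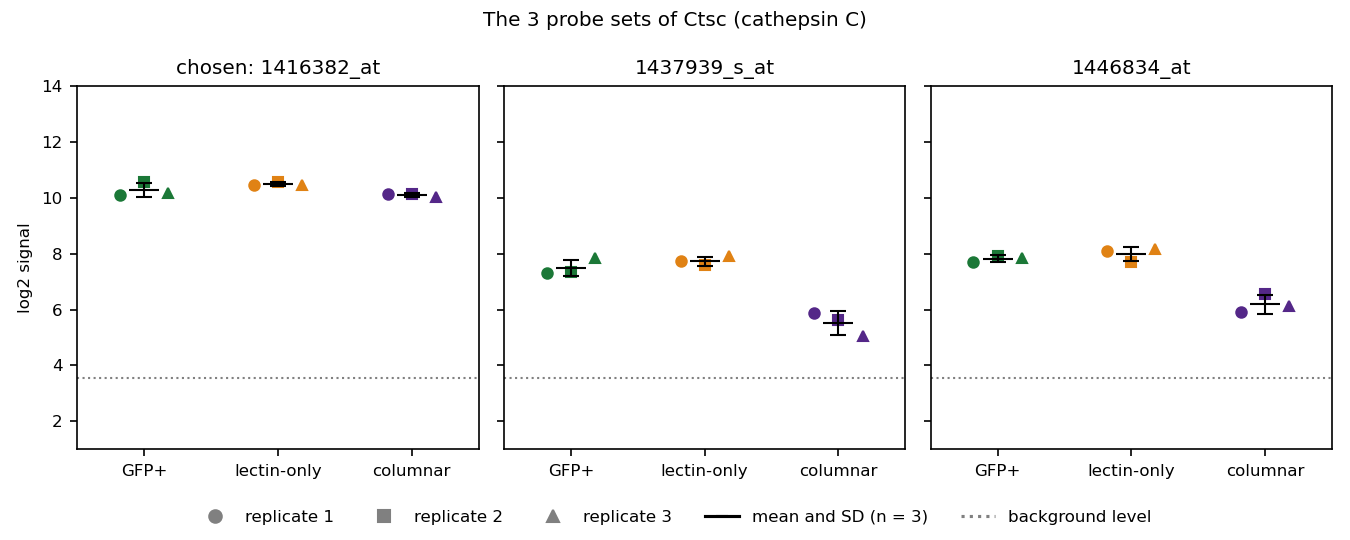
Log2 signal (vertical axis) of the 3 probe sets of Ctsc, 1 panel each, with gates from left to right as GFP+, lectin-only and columnar; points are arrays, black bars are the mean and SD of 3 arrays, and the dotted line is the background level of 3.56. The brightest probe set lies at 10.02 to 10.57 on all arrays, while the other 2 are higher in both lectin-binding gates than in columnar cells.

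The 5 neighbouring cathepsins on chromosome 13, Ctsll3, Ctsj, Ctsq, Ctsr and Ctsm, were called in no comparison, and 3 of them were never above background. Ctsll3 was above it on all 9 arrays, at 3.59 to 4.60, and Ctsr on 3 arrays. The uncalled cathepsins ranged from -0.96 to 0.56 in GFP+ against columnar, from -0.71 to 0.39 in lectin-only against columnar and from -0.55 to 0.86 in GFP+ against lectin-only cells. Of the 59 members, 21 have several probe sets. The 4 of Serpinb5 were all higher in lectin-only against columnar cells, by differences of means of 2.69 to 4.67. On the one with the smallest difference, lectin-only replicate 3 lay at 7.31 and columnar replicate 1 at 7.33, so these gates overlapped there. A further 3 probe sets matched several clade A or Serpinb9 relatives and were left out of the members; their signals were 1.85 to 2.98, under background on all arrays.

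**Figure D5:**
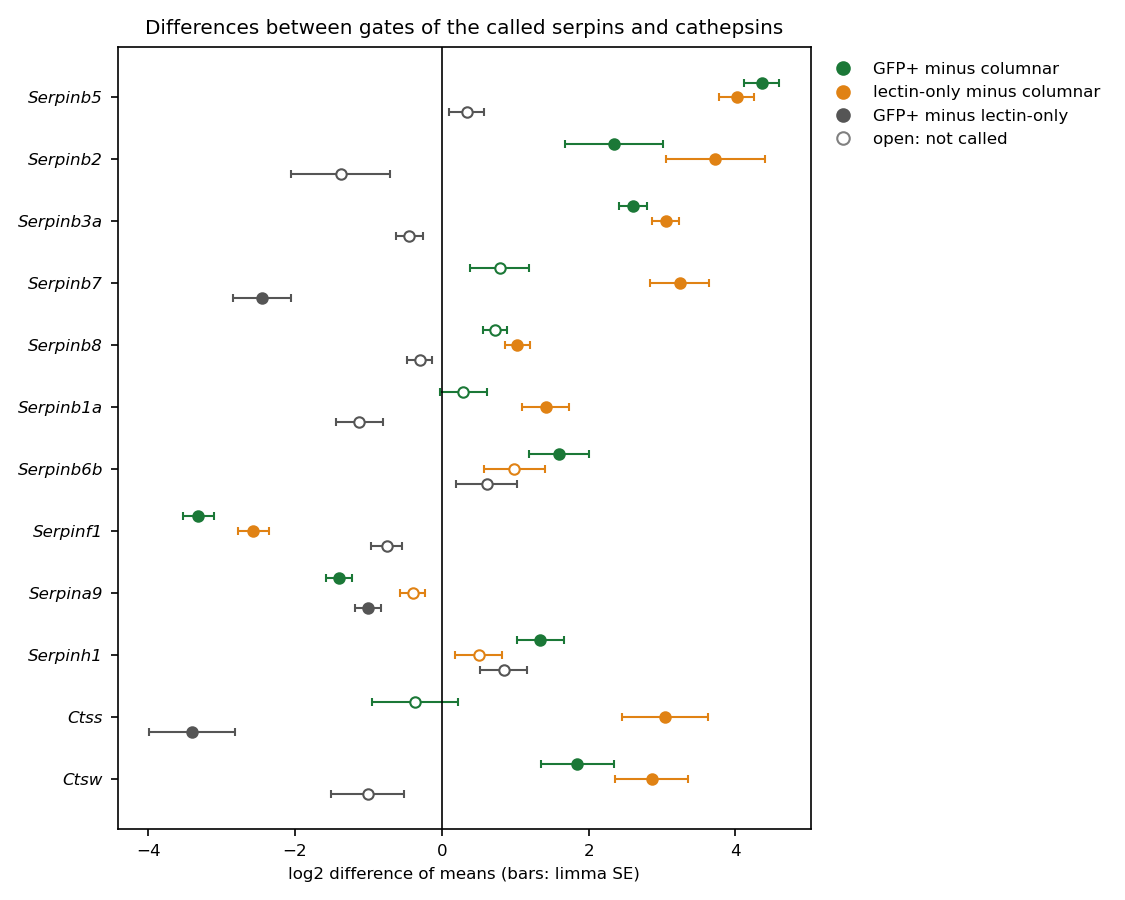
Log2 differences (horizontal axis) of the 12 called members, with GFP+ minus columnar in green, lectin-only minus columnar in orange and GFP+ minus lectin-only in grey; bars are limma standard errors and open points were not called. Serpinb5 at 4.36 and Serpinf1 at -3.32 are the extremes of GFP+ against columnar, and Ctss at -3.40, Serpinb7 at -2.45, with 2 of its GFP+ arrays under background, and Serpina9 at -1.004 are the filled grey points.

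The serine proteases that serpins could meet were called in both directions. Of 43 serine proteases of a list of serpin targets and relatives, 8 were higher and 6 lower in GFP+ against columnar cells, 11 higher and 3 lower in lectin-only against columnar cells, and 0 higher and 2 lower in GFP+ against lectin-only cells. These are 32.6%, 32.6% and 4.65% of the list, beside 11.2%, 8.85% and 3.74% of all genes. Htra1, a secreted serine protease, was higher by 4.71 ± 0.37 in GFP+ and 3.32 ± 0.37 in lectin-only against columnar cells. The membrane protease Tmprss11a was higher by 4.91 ± 1.20 in GFP+ (limma adjusted p = 0.0226) and 5.10 ± 1.20 in lectin-only against columnar cells (adjusted p = 0.0237), with columnar arrays spread over 3.16, 9.07 and 7.73. Its relative Tmprss11e was at least 2.44-fold higher in GFP+ and at least 4.79-fold higher in lectin-only than in columnar cells. Another relative, Tmprss11d, was at least 18.2-fold higher in lectin-only against columnar cells and lower by a difference of -2.95 ± 0.60 in GFP+ against lectin-only cells (adjusted p = 0.0255). Klkb1, plasma prekallikrein, which the C1 inhibitor controls, was lower in both lectin-binding gates than in columnar cells, by -2.38 ± 0.39 in GFP+ and -2.09 ± 0.39 in lectin-only cells. Gzma, a granule protease of cytotoxic lymphocytes, was higher by 3.41 ± 0.53 in lectin-only against columnar cells and lower by -3.41 ± 0.53 in GFP+ against lectin-only cells.

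Of 23 inhibitors outside the serpin family, 0 were higher and 3 lower in GFP+ against columnar cells, 3 were higher and 0 lower in lectin-only against columnar cells, and 0 were higher and 2 lower in GFP+ against lectin-only cells, with median differences of -0.35, 0.13 and -0.59. Values under background raised to that level gave medians of -0.17, 0.11 and -0.57. The shares called were 13%, 13% and 8.7%, beside 11.2%, 8.85% and 3.74% of all genes. Spink5 was higher by 4.21 ± 0.70 in lectin-only against columnar cells (limma adjusted p = 0.00424). Cst6, a cystatin that inhibits Ctsl, was higher by 3.21 ± 0.45 there (adjusted p = 0.00177) and lower by -2.20 ± 0.45 in GFP+ against lectin-only cells (adjusted p = 0.0267). Wfdc1 was lower in GFP+ than in columnar cells by -2.73 ± 0.28, and Slpi, an inhibitor of neutrophil elastase and of Ctsg, by -1.71 ± 0.22. Of 48 other lysosomal genes, 0 were higher and 3 lower in GFP+ against columnar cells, 2 were higher and 0 lower in lectin-only against columnar cells, and 1 was lower in GFP+ against lectin-only cells, which are 6.25%, 4.17% and 2.08% of them. The 3 lower in GFP+ cells were Sort1 (-1.55), Atp6v1b2 (-1.11) and Gusb (-1.07), a sorting receptor, a subunit of the lysosomal proton pump and beta-glucuronidase. Cd68, a lysosomal glycoprotein of macrophages that is also in the leukocyte list, was higher by 1.30 ± 0.16 in lectin-only against columnar cells and lower by -1.77 ± 0.16 in GFP+ against lectin-only cells.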

How the data were processed

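The deposited values are log2 probe set signals of 9 arrays, made by the authors with RMA (background correction, quantile normalization and probe summary), per the submitters' processing notes; software and version are not given in the sources used here. Of 45101 probe sets, 34945 had 1 gene symbol; the rest, 64 controls among them, did not enter. Symbols of 34741 were updated through RefSeq (GRCm38.p6). Each gene took its probe set of highest mean, which gave 18193 genes. A model of gate means, without covariates, was fitted to all 9 arrays by lmFit and eBayes of limma 3.58.1 under R 4.3.3, and p-values were adjusted over all genes by Benjamini-Hochberg; adjusted p-values are limma's. Where all 3 arrays of a gate were under background, that gate was set, per array, at background or its own signal, whichever was higher, and the fold given as a bound. The members and lists were chosen with earlier results of these data known. By rule, all called members, 8 bright uncalled members and up to 4 called genes per list and comparison were named. Ctsc, Ctsa, Ctse, Serpinb9, Serpinb12, Serpina3n and Serpina1b were chosen after their values were seen. P-values measure the spread between 3 arrays a gate, which limits precision: the median SE of the members was 0.23. The script was tested on simulated data. Alternatives changed scaling, filter, variance model, gates fitted, probe set rule, block, weights, fold minimum and arrays. Replicate numbers were not taken as pairs, since no label gives them a meaning. Between gates, correlations of deviations ran from -0.07 to 0.33 for same-numbered arrays and from -0.47 to 0.17 for different-numbered ones. The highest were thus same-numbered, and a fit with the number as a block is among the alternatives.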

Additional observations from a re-analysis of the deposited data

How the results depend on the processing

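Each comparison was refitted under 19 alternatives. Of 20 called results of members, 12 kept their call under all 19, 8 lost it under at least 1 and 0 reversed, and of 16 uncalled results of the same members 3 gained a call. Leaving out 1 array gave 3 to 5 higher and 2 to 3 lower members in GFP+ against columnar, where all arrays gave 6 and 2; 6 to 9 higher and 1 to 2 lower in lectin-only against columnar, beside 8 and 1; and 0 to 1 higher and 1 to 3 lower in GFP+ against lectin-only, beside 0 and 3. The 3 higher members in GFP+ against columnar came without GFP+ replicate 1, GFP+ replicate 3, columnar replicate 2 or columnar replicate 3, and the 1 lower in GFP+ against lectin-only came without lectin-only replicate 1. With no fold minimum, 4 members were lower in GFP+ and 2 in lectin-only than in columnar cells, and centring arrays on their medians also gave 2 lower in lectin-only. With the replicate number as a block, 7 were higher and 3 lower in GFP+ against columnar, 8 and 1 in lectin-only against columnar, and 0 and 3 in GFP+ against lectin-only; it added Serpina3n and Serpina1b to the first comparison and moved no count by over 1.5 times. Centring shifted the median of all genes by -0.24 in lectin-only against columnar and by 0.16 in GFP+ against lectin-only. It gave 974 higher and 699 lower genes in lectin-only against columnar, beside 1177 and 433, and 256 and 457 in GFP+ against lectin-only, beside 163 and 517. The cause of these moves was not tested. Without lectin-only replicate 3, 4 members were higher and 2 lower in GFP+ against columnar, 6 and 2 in lectin-only against columnar, and 0 and 2 in GFP+ against lectin-only. Signals near 3.56 limit what can be said of the dim members, and genes of similar sequence may share probes.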
